A study of Mus musculus with 78 samples.

Results

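The cortex libraries of mice with and without the enzyme ACSS2 were compared across both sexes in a single fit. Members were the columns of the pair of deposited count tables whose sample title names the cortex as region, which gave 11 of the 78 libraries of the series: 6 from ACSS2 KO mice and 5 from WT mice. Each library came from a different mouse. The female table held KO mice 4, 5 and 6 and WT mice 11 and 24. The male table held KO mice 1, 2 and 10 and WT mice 3, 12 and 13. The table was a covariate in the fit, and since each table holds 1 sex, table and sex cannot be told apart.

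All mice were single-housed adults of the strain C57BL6/J. The KO was constitutive, so every tissue carried it and not the cortex alone. It was made by injecting Cas9 mRNA and a pair of guides, which cut in introns before exon 3 and after exon 7 of Acss2, into C57Bl6/J embryos. Founders were backcrossed for 3 generations, and the number of founder lines is not given in the sources used here. Both genotypes drank 15% (v/v) ethanol in the drinking-in-the-dark paradigm, a model of binge-like intake. After 1 week of habituation they could choose between ethanol and water in sessions of 2 h (days 1 to 3) and 4 h (day 4), and in the second week ethanol was the only bottle during the sessions. No mouse without ethanol is among the samples, so the comparison is between genotypes of drinking mice.

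ACSS2 is an acetyl-CoA synthetase of the cytosol and nucleus. It joins acetate, which the liver releases when it breaks down ethanol, to coenzyme A, and the acetyl-CoA formed serves lipid synthesis and the acetylation of histones. In neurons the enzyme has been linked to histone acetylation at genes of learning and memory. In the cortex, genes induced by neuronal activity, such as those of the Egr family, respond to experience quickly.

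The deleted stretch can be read from the reference transcript. Acss2 lies on chromosome 2 (GRCm38), from 155517948 to 155585724 on the plus strand, and its reference transcript in GENCODE M21 has 18 exons, 2931 bases and a coding part of 2103 bases. Exons 3 to 7 span chr2:155549191-155550469, hold 460 bases, all coding, and make up 21.87% of the coding part and 15.69% of the transcript. Their joint length leaves a remainder of 1 base when divided by 3. They are shown because they are the bases the KO allele lacks; reads on the other 13 exons still count towards the gene. Capitals are not used, since every base shown lies inside the deletion.
Acss2 exon 3: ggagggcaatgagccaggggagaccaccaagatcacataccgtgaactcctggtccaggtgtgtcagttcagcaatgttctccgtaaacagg
Acss2 exon 4: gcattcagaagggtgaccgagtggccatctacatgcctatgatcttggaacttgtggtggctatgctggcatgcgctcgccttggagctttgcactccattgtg
Acss2 exon 5: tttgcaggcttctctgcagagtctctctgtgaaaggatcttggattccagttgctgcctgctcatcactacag
Acss2 exon 6: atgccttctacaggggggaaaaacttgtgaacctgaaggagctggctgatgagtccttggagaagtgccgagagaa
Acss2 exon 7: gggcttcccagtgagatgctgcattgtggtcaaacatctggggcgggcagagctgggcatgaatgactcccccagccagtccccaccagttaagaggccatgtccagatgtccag

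Acss2 itself fell in the KO cortex and was the only gene called. Levels are given as CPM, in which each count is divided by its library's total. The female KO mice 4, 5 and 6 had 3.94, 8.09 and 3.30 CPM of Acss2, from 4, 6 and 3 counts. The female WT mice 11 and 24 had 59.4 and 59.9 CPM. The male KO mice 1, 2 and 10 had 6.66, 9.30 and 13.96 CPM, and the male WT mice 3, 12 and 13 had 61.8, 62.7 and 48.6 CPM. The highest KO library thus lay far below the lowest WT library in both sexes. The means were 7.54 ± 3.91 CPM (SD, n = 6) in KO and 58.5 ± 5.70 CPM (SD, n = 5) in WT. The log2 fold change of KO over WT was -2.97 with a standard error (SE) of 0.23 (adjusted p = 1.06e-08, edgeR's quasi-likelihood test with Benjamini-Hochberg adjustment). It was -3.56 in the female table and -2.56 in the male table. The difference, male minus female, was 1.00 and not past the threshold (edgeR interaction term, unadjusted p = 0.061, adjusted p = 0.893 over all genes tested). The values are counts over the whole gene, and the position of the remaining reads was not analysed here.

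**Figure D1:**
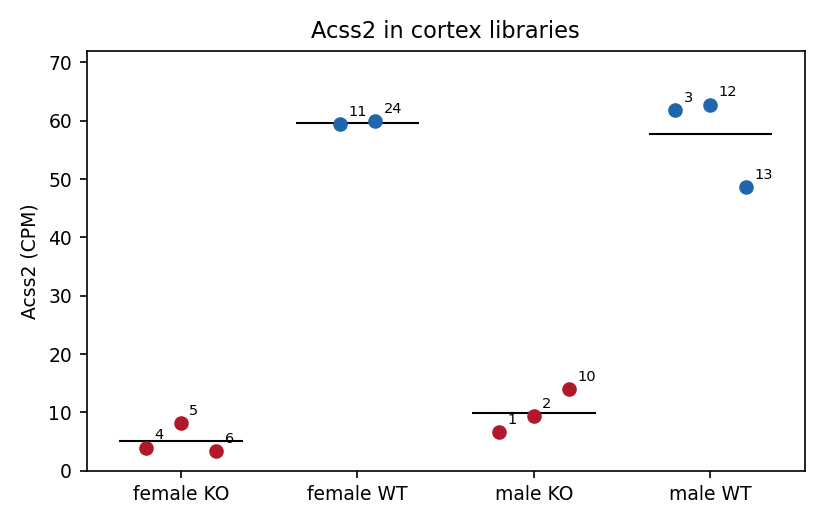
Acss2 in each cortex library, in CPM on a linear axis from 0, by sex and genotype. Each point is 1 mouse with its number and the line is the group mean. The KO libraries lie between 3.30 and 13.96 CPM and the WT libraries between 48.6 and 62.7 CPM.

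The libraries were shallow, and 2 of them stood apart in markers of neighbouring tissue. Total counts ran from 716543 to 1014092 with a median of 860269. A floor of 3 counts, chosen here, thus corresponds to 2.96 to 4.19 CPM. Values below it occur and rest on fewer counts. The labels held: Xist ranged from 430.1 to 764 CPM in the 5 female libraries and was listed at 0 in the 6 male ones. The marker of cortical glutamatergic neurons Slc17a7 was present in all libraries at 1224 to 1573 CPM. Female KO mouse 4 had 1092 CPM of the choroid plexus gene Ttr, against at most 31.02 CPM in the other 10 libraries, and the 8 choroid plexus markers summed to 1668 CPM there against 183.1 to 353 CPM elsewhere. Female WT mouse 24 had the highest sum of the 9 markers of striatal projection neurons (739 CPM), followed by female KO mouse 4 (640.0 CPM). Pairs of libraries of the same group differed by a chi-square per gene of 1.81 to 3.09 (10 pairs), above the sampling noise. The mice have separate numbers in the labels, and the spread between libraries therefore holds that between mice.

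Beyond Acss2, no gene passed the threshold when both tables were fitted together. Of 10236 genes tested, 1 was called (0.00977%), and the smallest adjusted p of any other gene was 0.737. Unadjusted p under 0.05 was reached by 669 genes (6.54%), 320 with higher values in KO (3.13%) and 349 with lower values (3.41%); evenly spread p-values would give 511.8. That number moved with single libraries, from 443 of 10151 genes without male WT mouse 13 to 1091 of 10163 without male WT mouse 3. Without female KO mouse 4 and female WT mouse 24 it was 496 of 10400, and Acss2 was again the only call. In 64 genes (0.625%) the 6 KO and 5 WT libraries did not overlap in CPM, 33 with KO above WT (0.322%) and 31 with KO below (0.303%).

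The 15 genes that followed Acss2 by p, at a mean of at least 5 CPM, are given as values, and none passed the test (adjusted p = 0.737 for each, edgeR). In 6 of them the KO and WT libraries did not overlap: Nadk, Tcea2, Prr16, Ndufb8, Cdh22 and Pdgfa. Over all genes tested the share was 0.625%. The 15 were picked by p on these same libraries, so the lack of overlap follows largely from that choice and is no further support.

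Nadk, the kinase that makes NADP from NAD in the cytosol, was among those lower in KO (chromosome 4, 155562378 to 155591001). Its female KO libraries had 46.3, 67.4 and 52.8 CPM and its male KO libraries 67.7, 66.3 and 46.1 CPM. The female WT libraries had 86.5 and 81.0 CPM and the male WT libraries 76.4, 84.0 and 82.0 CPM. All KO values thus lay below all WT values, with an estimated log2 fold change of -0.50 (SE 0.13).

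Cdh22, a cadherin and so a cell adhesion protein, lies on chromosome 2 from 165111507 to 165234853. It had 34.5, 51.2 and 62.7 CPM in female KO and 59.9, 41.8 and 44.7 CPM in male KO. In WT it had 80.1 and 63.4 CPM in females and 75.4, 72.2 and 66.9 CPM in males. The KO libraries were the lower ones throughout, although the highest KO and the lowest WT value, 62.7 and 63.4 CPM, were almost level. The log2 fold change was -0.54 (SE 0.15). Prr16, with 9.86 to 16.3 CPM in KO and 17.8 to 32.3 CPM in WT, was estimated at -0.84 (SE 0.23).

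On the side of higher values in KO, Tcea2, a transcription elongation factor of the TFIIS type, also lies on chromosome 2 (181680310 to 181688071). It had 50.3, 47.2 and 46.2 CPM in female KO, 41.1, 37.2 and 41.9 CPM in male KO, 32.3 and 23.5 CPM in female WT and 31.4, 30.8 and 23.7 CPM in male WT. Every KO library was above every WT library, with a log2 fold change of 0.62 (SE 0.17). Pdgfa, a ligand of the receptor on oligodendrocyte precursors (chromosome 5, 138976014 to 138997370), had 43.4 to 58.8 CPM in KO and 28.1 to 42.9 CPM in WT (log2 fold change 0.55, SE 0.16). Ndufb8, a subunit of respiratory complex I (chromosome 19, 44548572 to 44555440), had 86.5 to 128 CPM in KO and 60.4 to 85.8 CPM in WT (0.47, SE 0.13).

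The other 9 of the 15 overlapped between genotypes. Egr3, an activity-induced transcription factor (chromosome 14, 70077203 to 70082614), had 92.7, 131 and 111 CPM in female KO and 115, 119 and 102 CPM in male KO. In WT it had 172 and 175 CPM in females and 111, 153 and 171 CPM in males. A single WT library, male mouse 3, lay among the KO libraries, and the log2 fold change was -0.49 (SE 0.12). Col6a1, a chain of collagen VI, had 20.2 to 63.1 CPM in KO and 14.2 to 33.1 CPM in WT and the largest estimate after Acss2 among these genes, 1.05 (SE 0.27). Bc1, a short noncoding RNA of neuronal dendrites with an exonic length of 168 bases, had 3054 to 6300 CPM in KO and 2886 to 4641 CPM in WT (0.50, SE 0.14). With the length and GC offsets described below, Bc1 was at 0.26 (SE 0.15). Lower estimates in KO were those of Fam184a (-0.76), Fzd3, a Wnt receptor of the Frizzled family (-0.43), Slc39a10, a zinc importer (-0.38), and Enc1 (-0.35). Higher estimates were those of Tomm7, of the translocase of the outer mitochondrial membrane (0.57), and AC149090.1 (0.57).

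**Figure D2:**
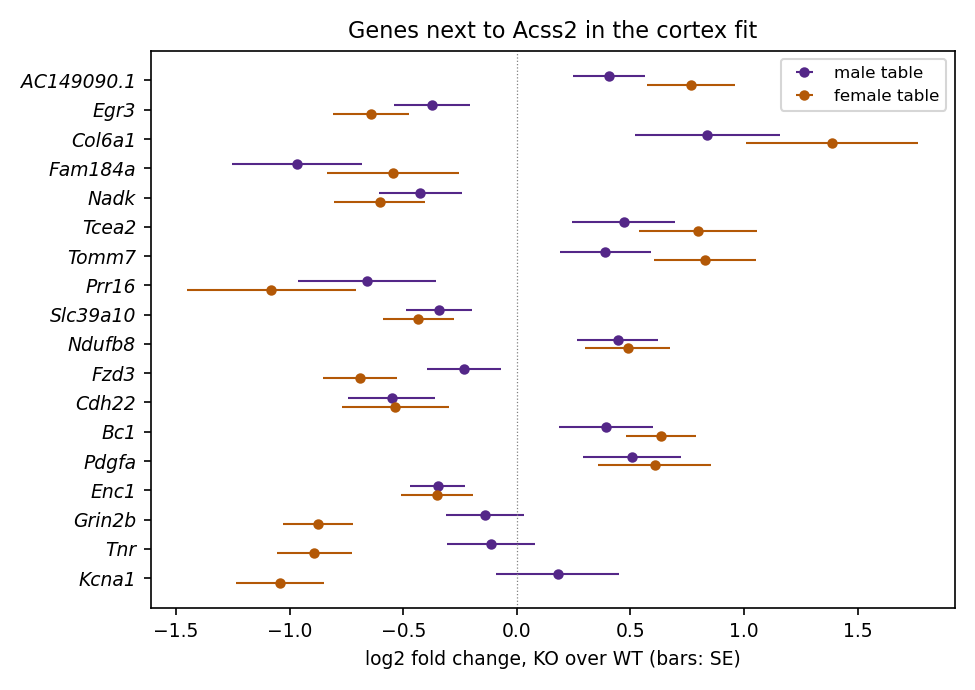
Log2 fold change of KO over WT in the male and the female table, fitted separately, for the 15 genes that followed Acss2 by p and for the 3 genes called besides Acss2 in the female table; bars are the SE of the model. Fam184a has the larger estimate in males. Grin2b, Tnr and Kcna1 were picked for their calls in the female table, so their larger female estimates follow in part from that choice.

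The fold changes followed exonic length across genes, more so in the female than in the male table, while over libraries the genotypes did not differ in this beyond their spread (exact permutation p = 0.15). Genes with short transcripts tended to have higher values in KO and genes with long transcripts lower values. Exonic length here is the union of a gene's exons in GENCODE M21, known for 10127 of the tested genes (98.9%). Across these genes, which are not replicates, Spearman's correlation of the fold change with length was -0.29 in both tables together, -0.39 in the female table and -0.02 in the male table. With GC content it was 0.15, 0.18 and 0.04, and length and GC content are themselves related across genes (Spearman's correlation -0.37). Of the variance in fold change, 7.84% lay on a smooth surface over length and GC content in both tables together, 14.4% in the female table and 0.950% in the male table. Offsets that remove each library's own trend left 0.0992%, which follows largely from their fit to these same genes. Single libraries moved the share, which was 3.73% without female WT mouse 24, 4.90% without male WT mouse 13 and 12.7% without male WT mouse 3. The correlation with the longest transcript was -0.33 and with the genomic span -0.30. With the offsets, which were fitted to exonic length and GC content, these correlations were -0.09 and -0.11.

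In 10 bins of equal size, the median log2 fold change went from 0.12 in the shortest genes (median length 1522.5 bases) to -0.10 in the longest (13589 bases). In the shortest bin 24.7% of the genes had an estimate below 0, and in the longest 72.2%. Of the genes at unadjusted p under 0.05, 94 were higher and 7 lower in the shortest bin, and 10 were higher and 95 lower in the longest. The female table spanned 0.28 to -0.23 between these bins, and the male one 0.02 to 0.00. In bins of GC content the median went from -0.03 at 39.6% GC to 0.05 at 59.2% GC.

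**Figure D3:**
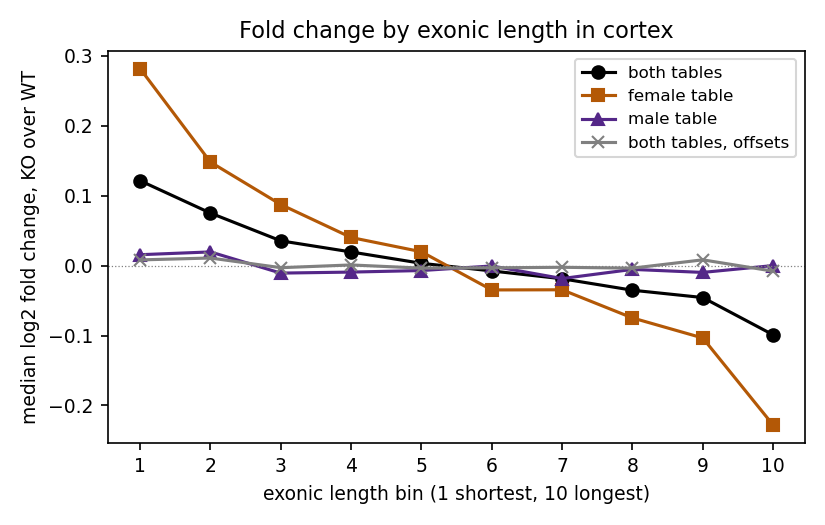
Median log2 fold change of KO over WT in 10 bins of exonic length, from the shortest to the longest genes, for both tables, each table alone and both tables with length and GC offsets. The line of the female table falls from 0.28 to -0.23 and that of the male table stays between -0.02 and 0.02.

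The trend was then measured in each library, as the change of log2 CPM, less the table mean, for each doubling of exonic length at equal GC content. Female KO mice 4, 5 and 6 had slopes of -0.046, -0.022 and -0.077, and female WT mice 11 and 24 had 0.097 and 0.049. The female KO slopes were all below 0 and the female WT slopes above it. Because the table mean is subtracted, the slopes of a table sum to 0, and its group means have opposite signs in any case. With 3 KO and 2 WT libraries, a separation by chance is not rare, and the female table was not tested alone. Male KO mice 1, 2 and 10 had -0.0068, -0.0080 and 0.012, while male WT mice 3, 12 and 13 had -0.079, 0.0021 and 0.080. The male WT slopes ran from below the lowest to above the highest male KO slope. Over both tables the KO slope was lower than the WT slope by -0.055, and the two-sided exact permutation test within tables gave p = 0.15, 0.30 after adjustment over both slopes tested (200 labellings, smallest possible p 0.005). For the GC slope, per 10 percentage points, the difference was 0.016 (exact permutation p = 0.65, adjusted 0.65). The length slope reached exact permutation p = 0.02 without male WT mouse 3 (difference -0.081).

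**Figure D4:**
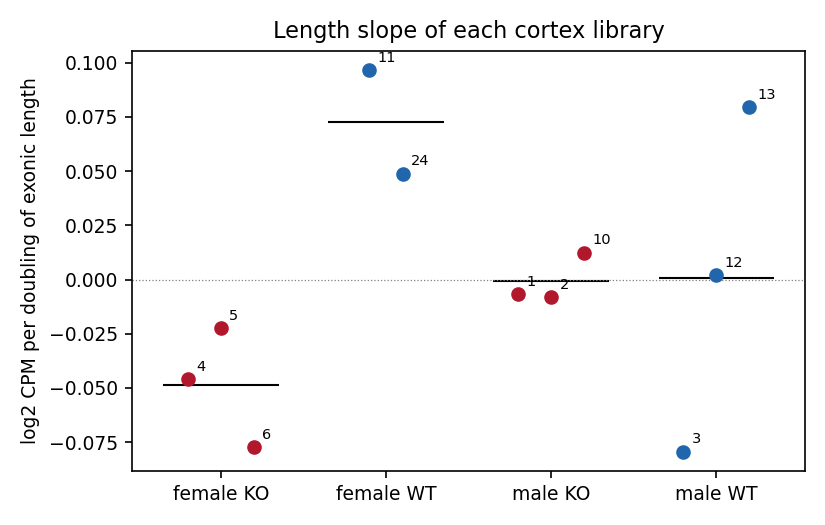
Slope of log2 CPM (less the table mean) per doubling of exonic length in each cortex library, with mouse numbers; lines are group means. Female KO (n = 3) and female WT (n = 2) do not overlap, which was not tested alone, and male WT mice 3 and 13 lie at -0.079 and 0.080.

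In the other regions of the series, described with no test, the same slope did not show a common sign of the genotypes. Female KO and WT slopes overlapped in the other 6 regions. Among males the KO slopes were all above the WT slopes in the amygdala (difference 0.052) and the ventral hippocampus (0.068), a direction opposite to that of the female cortex (-0.12). In the ventral hippocampus, Spearman's correlation of the fold change with length was 0.15. The sign of a mouse's slope in cortex was also its sign in ventral hippocampus in 5 of 11 mice.

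Several gene lists lay along this trend, given here from the short genes on. Cytosolic ribosomal proteins, the protein parts of the ribosome, had a median exonic length of 1775.5 bases against 4942 over all genes tested. Of 83 genes 76 were tested and none was called. At unadjusted p under 0.05, 17 had higher values in KO and none lower, against 3.13% and 3.41% of all genes. In the shortest length bin, which holds the list's median length and genes of the list, 94 of 1012 were higher and 7 lower. Their median log2 fold change was 0.20 (0.00 over all genes), with 0.40 in the female and 0.05 in the male table. With length and GC offsets the median was 0.10. The summed level of the list was 11122, 10188 and 11651 CPM in female KO and 7553 and 9012 CPM in female WT. In males it was 9474, 10237 and 9190 CPM in KO and 10751, 9568 and 7877 CPM in WT. The female genotypes were apart, and the male WT libraries lay on both sides of the male KO libraries. The part of length in the result was not tested. The offsets cannot measure it, since they were fitted to trends over genes that include this list. Over the fits that left out 1 library, the list's median ran from 0.11 without female WT mouse 11 to 0.27 without male WT mouse 3, and the number of its genes higher at unadjusted p under 0.05 ran from 2 to 40 in the same fits. Rps18 had 109 to 122 CPM in KO and 69.1 to 107 CPM in WT (log2 fold change 0.41, SE 0.12), without overlap. Over all genes tested 0.625% did not overlap. Rps18 was picked for the smallest p of the list on these same libraries, so its lack of overlap is no further support.

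Nuclear respiratory chain subunits, which with the mitochondrially encoded ones build the complexes of oxidative phosphorylation, were similar in this. Of 78 genes 71 were tested, none was called, and 13 had higher values in KO at unadjusted p under 0.05 and none lower (3.13% and 3.41% over all genes). Their median length of 1578 bases lies in the shortest length bin, where 94 of 1012 genes were higher and 7 lower. The count was 31 without male WT mouse 3 and 5 without female WT mouse 11, female WT mouse 24 or male WT mouse 13, and the median ran from 0.10 without female WT mouse 11 to 0.24 without male WT mouse 3. In all libraries the median was 0.15 in the fit of both sexes, 0.36 for females, 0.03 for males and 0.05 with offsets. Cox6a1, with 279 to 345 CPM in KO and 218 to 325 CPM in WT, was estimated at 0.30 (SE 0.11) and at 0.13 with offsets. The 7 mitochondrially encoded mRNAs tested of 13 had a median of 0.05, with 0.36 in the female and -0.19 in the male table. It was -0.13 without female WT mouse 11 and -0.04 with offsets. The sum over all 13 ranged from 39624 to 69048 CPM in KO and from 34373 to 61163 CPM in WT. The genotypes thus overlapped over most of the range.

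Among the lists of long genes, subunits of the glutamate receptors, through which excitatory synapses act, had a median length of 8310.5 bases. Of 22 subunits 20 were tested, and none was called in both tables together. At unadjusted p under 0.05, 2 had lower values (Grin2a and Grin2b, against 3.41% over all genes) and none higher. In the length bin that holds the list's median length, 50 of 1013 genes were lower and 22 higher. Without male WT mouse 3 the count was 5 and the median -0.19, and without female WT mouse 11 the median was -0.07. In all libraries the median was -0.14, with -0.29 in the female table, -0.03 in the male table and -0.07 with offsets. Grin2b encodes the NR2B subunit of the NMDA receptor, lies on chromosome 6 from 135713233 to 136173511 and has an exonic length of 24842 bases. It had 177, 231 and 194 CPM in female KO and 402 and 336 CPM in female WT. In males it had 297, 252 and 248 CPM in KO and 214, 288 and 374 CPM in WT. Female libraries did not overlap and male libraries did. The obligatory NMDA receptor subunit Grin1 and the AMPA receptor subunit Gria2 were estimated at -0.19 (SE 0.11) and -0.14 (SE 0.09) in both tables together.

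GABA-A receptor subunits, which form the channel of fast inhibition, had 12 of 13 genes tested and none called. At unadjusted p under 0.05, 3 had lower values in KO, among them Gabrb1 (-0.38, SE 0.14) and Gabrb2 (-0.43, SE 0.17), and none was higher (3.41% and 3.13% over all genes). In the length bin that holds the list's median length of 6451 bases, 36 of 1012 genes were lower and 21 higher. The count was 4 without male KO mouse 10 or male WT mouse 3 and 1 without female WT mouse 24 or male WT mouse 13. The median was -0.13, with -0.24 in the female table, -0.06 in the male table and -0.14 with offsets. The summed level was 1698 to 2053 CPM in KO and 1912 to 2249 CPM in WT. Without female KO mouse 4 and female WT mouse 24, none of the subunits had an unadjusted p under 0.05.

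Genes of perineuronal nets, the matrix around many inhibitory neurons, and of fast spiking had 16 of 18 tested. None was called. At unadjusted p under 0.05, 4 had lower values and none higher (3.41% and 3.13% over all genes). In the length bin that holds the list's median length of 7166.5 bases, 50 of 1013 genes were lower and 22 higher. The count was 7 without male KO mouse 10 or male WT mouse 12 and 2 without female WT mouse 11 or male WT mouse 13, and the median ran from -0.29 without male WT mouse 12 to -0.07 without female WT mouse 11. In all libraries the median was -0.20, with -0.32 in the female table, -0.02 in the male table and -0.12 with offsets. Tnr, the matrix protein tenascin-R (chromosome 1, 159523769 to 159931729), had 74.0, 93.1 and 84.7 CPM in female KO against 154 and 157 CPM in female WT. Its male values were 93.2, 122 and 103 CPM in KO and 78.5, 127 and 138 CPM in WT, with overlap. Scn8a, a sodium channel, was estimated at -0.31 (SE 0.11).

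**Figure D5:**
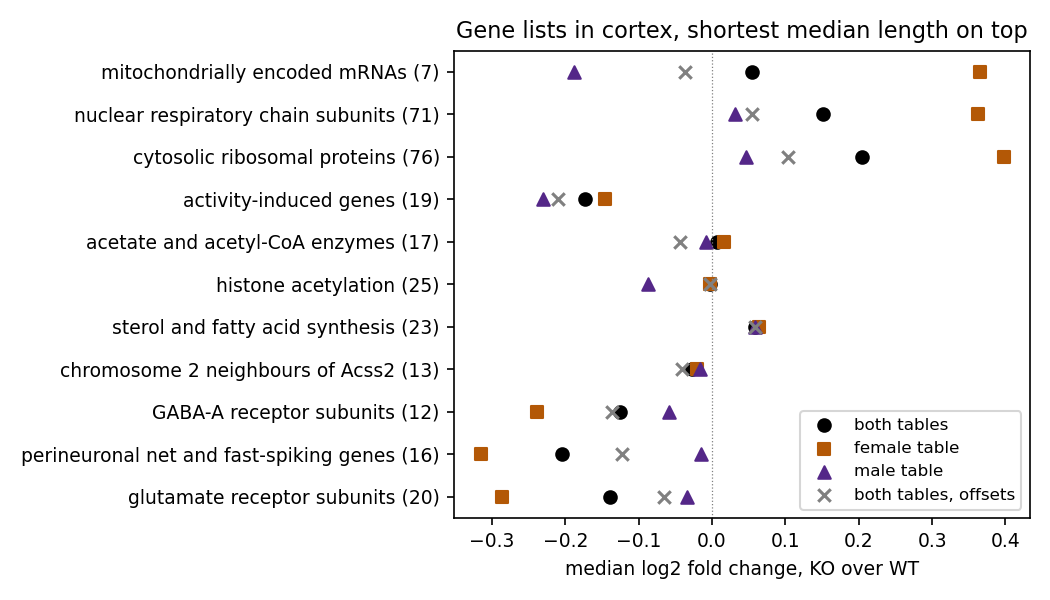
Median log2 fold change of KO over WT for the gene lists, ordered by median exonic length with the shortest on top; the number of tested genes is in brackets. Ribosomal and respiratory chain lists lie at 0.40 and 0.36 in the female table and at 0.05 and 0.03 in the male table. In the fit of both tables together they lie at 0.20 and 0.15 without offsets and at 0.10 and 0.05 with them.

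In the female table alone, 4 of 10044 genes were called (0.0398%), all lower in KO: Acss2, Grin2b, Tnr and Kcna1. Kcna1, a potassium channel of axons (chromosome 6, 126640397 to 126646384), had 51.3, 40.5 and 45.1 CPM in female KO and 102 and 89.2 CPM in female WT. The log2 fold changes in females were -0.88 (SE 0.15) for Grin2b, -0.89 (SE 0.17) for Tnr and -1.04 (SE 0.19) for Kcna1, with adjusted p of 0.0421, 0.0442 and 0.0442 by edgeR. With length and GC offsets only Acss2 and Kcna1 were called. Grin2b, Tnr and Kcna1 were lost from the calls in 4 of the 5 fits that left out 1 female library. Without female KO mouse 5, and likewise without female WT mouse 11, Acss2 alone was called. Without female KO mouse 6 the 2 calls were Acss2 and Ttr, and without female KO mouse 4 the 3 calls were Acss2, Slc24a2 and Scn4b (named after their values were seen). Without female WT mouse 24 there were 16 calls, with Grin2b and Kcna1 and without Tnr. The 13 calls of DESeq2 included Grin2b but neither Tnr nor Kcna1. Unadjusted p under 0.05 was reached by 1063 genes (10.6%).

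In the male table Acss2 alone was called among 9719 genes (0.0103%), and 287 genes had an unadjusted p under 0.05 (2.95%). Kcna1 was estimated at 0.18 (SE 0.27) there, with 59.9, 89.5 and 87.9 CPM in KO and 54.4, 42.6 and 109 CPM in WT. Grin2b and Tnr were estimated at -0.14 (SE 0.17) and -0.11 (SE 0.19). The difference between the tables was tested as the interaction and no gene of 10555 was called (0%; 571 genes, 5.41%, at unadjusted p under 0.05; none by DESeq2 either). For Kcna1 the male fold change exceeded the female one by 1.22, for Tnr by 0.78 and for Grin2b by 0.74 (adjusted p = 0.893 for each, edgeR). Calls in the female table alone thus came without a called difference from the male table, and these genes were picked on their female values.

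Lists closer to the enzyme's own function showed smaller medians. Of 20 enzymes of acetate and acetyl-CoA metabolism, 17 were tested and Acss2 was the only one called or at unadjusted p under 0.05; the median was 0.01. Pdhb and Dlat, parts of the pyruvate dehydrogenase complex that makes acetyl-CoA in mitochondria, were estimated at 0.19 (SE 0.12) and -0.17 (SE 0.11). All 25 histone acetylation genes were tested and none was called. Their median was 0.00 in both tables together, -0.002 in the female table and -0.088 in the male table. At unadjusted p under 0.05, 2 of them were lower in KO and 1 was higher (3.41% and 3.13% over all genes). The lower ones were the acetyltransferases Ep300 (-0.44, SE 0.17) and Kat6a (-0.36, SE 0.15), the higher one the deacetylase Hdac7 (0.39, SE 0.16). Ep300 was at -0.67 in the female and -0.27 in the male table, Kat6a at -0.53 and -0.23, and Hdac7 at 0.29 and 0.45. With 1 library left out, 1 to 4 genes were lower and 0 to 2 higher. Of 26 genes of sterol and fatty acid synthesis 23 were tested, and the list's median was 0.06. Fdft1, squalene synthase, alone was at unadjusted p under 0.05 (0.30, SE 0.14), against 3.13% of all genes on the higher side. Of 18 chromosome 2 neighbours of Acss2, 13 were tested, none at unadjusted p under 0.05, with a median of -0.03.

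Activity-induced genes had 19 of 21 tested and none called. Their median exonic length was 3509 bases, against 4942 over all genes tested, so this list did not lie along the length trend. Its median log2 fold change was -0.17, while the length bin that holds 3509 bases had a median of 0.035. The female and male tables gave -0.15 and -0.23 for the list, and the offsets -0.21. Egr3 and Homer1 (-0.37, SE 0.11), a scaffold of the postsynapse, were lower at unadjusted p under 0.05 (3.41% over all genes). Npas4, a neuronal transcription factor, was higher at unadjusted p under 0.05 (0.95, SE 0.35), against 3.13% of all genes. It had 7.70 to 23.7 CPM in KO and 2.58 to 10.8 CPM in WT. Its lowest value, in female WT mouse 11, lay below the floor of that library (3.87 CPM). Egr1 and Arc, the latter a protein of synaptic plasticity, were estimated at -0.21 (SE 0.11) and -0.22 (SE 0.21). The summed level was 1033 to 1496 CPM in KO and 1383 to 1617 CPM in WT. Over the fits that left out 1 library, the list's median ran from -0.20 without female KO mouse 5 to -0.02 without male KO mouse 1. In these fits 2 to 4 genes were lower and 0 to 2 higher at unadjusted p under 0.05.

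Among the cell type markers, the median was farthest from 0 for oligodendrocytes, the myelin-forming cells. Of 12 markers 11 were tested, none was called, 3 had higher values in KO at unadjusted p under 0.05 (3.13% over all genes), and the median was 0.34, with 0.12 in the female and 0.46 in the male table. The median was 0.16 without female KO mouse 4 and 0.48 without female KO mouse 6, and the count was 8 without female KO mouse 6 and 0 without female WT mouse 11 or male KO mouse 2. Their sum was 7177, 2650 and 3402 CPM in female KO, 2978 and 4425 CPM in female WT, 3062, 4916 and 4028 CPM in male KO and 2722, 2899 and 2938 CPM in male WT. The male genotypes were apart and the female ones overlapped. Without female KO mouse 4 and female WT mouse 24, the highest of their groups, the median was 0.23 and 4 markers had higher values at unadjusted p under 0.05. Mobp, a myelin protein, had 436, 867 and 652 CPM in male KO and 439, 421 and 426 CPM in male WT (estimate over both sexes 0.56, SE 0.21, and 0.59 with offsets). In bulk tissue, more oligodendrocytes and more RNA per oligodendrocyte cannot be told apart, nor can a share of white matter in the dissected piece. Of 19 markers of cortical excitatory neurons all were tested, none was called, and 4 were lower at unadjusted p under 0.05 (3.41% over all genes; median -0.08). The count was 1 without female KO mouse 4 or female WT mouse 11, and the median ran from -0.14 without male KO mouse 2 to -0.03 without male WT mouse 13. Their sum was 7643 to 9934 CPM in KO and 8370 to 9977 CPM in WT. The medians of the markers of interneurons, astrocytes, microglia and endothelial cells were -0.01, 0.01, 0.04 and -0.08, with no gene called.

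The ventral hippocampus, of a similar range of depth, served as the comparison region (12 libraries, 11 of them from the mice of the cortex libraries and 1 from another female WT mouse, 23). The log2 fold change of Acss2 was -3.27 there (SE 0.23; adjusted p = 1.01e-06, edgeR). The difference of the KO effect between the regions was called for none of 11040 genes (0%), with 671 (6.08%) at unadjusted p under 0.05 and a smallest adjusted p of 0.254; DESeq2 called none either. Of the 15 genes that followed Acss2 in cortex, 8 had an estimate of the same sign in ventral hippocampus, and 1 had an unadjusted p under 0.05 there. That gene, Cdh22, was estimated at 0.64 (SE 0.22) in ventral hippocampus and -0.54 in cortex (adjusted p of the difference 0.785, edgeR). Egr3 was at -0.19 (SE 0.25), Nadk at -0.09 (SE 0.17), Tcea2 at -0.10 (SE 0.22) and Col6a1 at 0.11 (SE 0.45).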

How the data were processed

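The authors deposited raw counts of reads per gene symbol, 1 table per sex, with no normalization. Per the submitters' processing notes, STAR 2.5.2a, SAMtools 1.1, HTSeq 0.6.1, DESeq2 and R 4.0.2 were used and the builds GRCm38 and mm10 are named; the annotation and the strand setting are not given in the sources used here, so antisense overlaps cannot be told apart. Per the labels' protocols, poly(A) RNA was isolated, with 300 ng of total RNA as input. Here, both tables (55367 symbols) were fitted with edgeR 4.0.16 (limma 3.58.1, R 4.3.3): TMM, filterByExpr (minimum count 10, total 15), the quasi-likelihood test and Benjamini-Hochberg adjustment over all genes tested, threshold 0.05. CPM are counts scaled to a common library total. Length and GC content came from GENCODE M21 (GRCm38), which held 53253 of the symbols and may not be the authors' annotation. Library slopes used log2 CPM (prior count 2). Offsets were loess trends (span 0.5).

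Named genes were Acss2, calls, the 15 genes of next smallest p at a mean of 5 CPM or more, Kcna1, Tnr and Grin2b (called in females in earlier work), up to 3 genes of smallest p and 3 of highest CPM per list, and the 3 of highest CPM in the end bins of length. Ttr is named as a marker after its values were seen. The members and lists were chosen with earlier results of these data known. Per the labels, 11 mice gave both a cortex and a ventral hippocampus library, and the deviations of the same mouse correlated by -0.072 to 0.13 across genes (median 0.014). DESeq2 1.42.0 served as an alternative. The fits were tested on simulated data. Some genes that the rule names are not reported here.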

Additional observations from a re-analysis of the deposited data

Results flagged for a closer look

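A library was set apart where its gap to the next library of its genotype, over the genotype's range, passed Dixon's 95% critical value, which chance alone does in about 1 of 20 groups; 90 groups were examined and 7 passed. Female KO mouse 4 stood above the other KO libraries in the sum of the choroid plexus markers (1668 CPM against 183.1 to 314 CPM). Female KO mouse 5 stood above them in the markers of microglia (518 CPM against 379.6 to 407 CPM) and of endothelial cells (375 CPM against 239.6 to 290.3 CPM). Among WT libraries, female mouse 24 was highest in the markers of oligodendrocytes (4425 CPM against 2722 to 2978 CPM) and of striatal projection neurons (739 CPM against 302 to 394 CPM). Male KO mouse 10 had the lowest sum of the acetate and acetyl-CoA enzymes (1611 CPM against 1752 to 1805 CPM). Male WT mouse 13 had the lowest Acss2 of the WT libraries (48.6 CPM against 59.4 to 62.7 CPM).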

How the results depend on the processing

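Acss2 was the only call in both tables together under 19 of 20 alternatives: DESeq2 size factors, the DESeq2 Wald test, length and GC offsets, library slopes as covariates, no table covariate, a minimum count of 30, limma voom with sample quality weights, each library left out in turn, and 2 libraries left out together. That last setting, without female KO mouse 4 and female WT mouse 24, was chosen after seeing the data. With no low-count filter edgeR called 10 genes in both tables, 5 in the male table, 17 in the female table, 4 in the interaction and 41 in the difference from ventral hippocampus; the cause was not tested. In the female table DESeq2 called 13 genes, without Acss2, whose adjusted p it gave as NA, the offsets left 2, and leaving out 1 library gave 1 to 16. Leaving out 1 library gave 1 call in both tables together, 1 in the male table, and 0 in the interaction and in the region difference. With the mouse as replicate block the region difference also had 0 calls (732 genes at unadjusted p under 0.05 against 671), so the pairing of regions by mouse changed no call.

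The difference in length slope ran from -0.081 to -0.034 with 1 library left out (exact permutation p 0.02 to 0.35). The difference in GC slope ran from -0.012 to 0.049, with the other sign without female WT mouse 24, and was -0.0067 without both libraries named above. The share of variance held by length and GC content was 0.950% in the male and 14.4% in the female table, 3.73% to 12.7% with 1 library left out and 3.60% without both. Of 1675 values of 77 named genes under alternatives, 1631 kept the sign of the main fit and 44 did not; 9 values of genes other than Acss2 passed the threshold. Depth limits genes of low level, since 3 counts stand for 2.96 to 4.19 CPM.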
